A study of Homo sapiens with 6 samples.

Results

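Cathepsins are the proteases of the lysosome, and cystatins are small proteins that bind and block those of them that cut with a cysteine residue. The expression of 10 such genes was compared between MCF10.AT1 breast epithelial cells and MCF10.AT1-R, a line made resistant to fluvastatin, a statin that blocks HMG-CoA reductase. The genes were the 7 cathepsins CTSA, CTSB, CTSC, CTSD, CTSH, CTSL and CTSZ and the 3 cystatins CSTA, CSTB and CST6. They were found by their symbol among the 81496 gene symbols of the array. They have 11 probe sets of 135750, and for CTSB, which has more than 1, the probe set with the higher mean was used.

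MCF10.AT1 is a preneoplastic derivative of the MCF10A mammary line that carries an activated HRAS oncogene, and both lines compared here share it. MCF10.AT1-R was selected from MCF10.AT1 in fluvastatin raised stepwise from 1 µM up to 20 µM, and the parental cells are labelled untreated. Each line was profiled on 3 arrays from biological replicates. MCF10.AT1-R is 1 selected line, so its arrays do not show how much independently selected lines would differ, and whether fluvastatin was present at harvest is not given in the sources used here. One parental array, A03, correlated with the other arrays at 0.779 to 0.795 over all probe sets, against 0.967 to 0.977 among the remaining 5, and was removed by the study. The comparison therefore rests on the parental arrays A01 and A02 and the resistant arrays B02, B03 and B04, and A03 is given apart.

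Most cathepsins are made as inactive precursors, tagged with mannose 6-phosphate, carried to the lysosome and cut to their active form in its acid lumen. Cystatins A and B, the stefins, stay inside the cell, while cystatin E/M, encoded by CST6, is secreted. In stratified epithelia, CSTA is built into the cornified envelope, and cystatin E/M restrains the cathepsins and the legumain that act during cornification.

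The 2 members that passed were inhibitors. CST6 and CSTA rose in the resistant line, by 4.40-fold and 3.38-fold. None of the 5 cathepsins tested passed, and 1 of them, CTSH, was at background. The other 2, CTSC and CTSD, were not tested. Outside the 10 genes, the cathepsin gene CTSV rose by 7.09-fold, more than either inhibitor. Values are log2 RMA signals, and a change is the mean of the resistant arrays minus that of the parental arrays, with the 95% interval from limma. For genes not tested, the interval is from a separate limma fit without a filter. A change passed where its Benjamini-Hochberg adjusted p over 51457 probe sets tested was below 5%. Of those probe sets 0.758% passed as higher and 0.447% as lower. Of the 10 genes, 2 were higher, 0 were lower, and 3 (CTSC, CTSD and CSTB) were not tested because their spread over the arrays fell below the limit of the filter.

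For the cathepsins with a sequence on hand, the bases before the gene's start are shown, because lysosomal genes are known to share an E-box, CACGTG, which within TCACGTGA is the core of the element bound by the transcription factor TFEB. RefSeq promoters on GRCh38.p14, from 250 bases before to 50 bases after the start, were on hand for 6 of the 10 genes, namely CTSA, CTSC, CTSD, CTSH, CTSL and CTSZ. The CTSA and CTSD sequences are printed because they were the members with a match, CTSV because this relative of CTSL had the largest rise of any cathepsin, and IVL because it rose beside the cystatins. Only the 250 bases before the start are printed, 5′ to 3′ on the gene's strand, and capitals mark the E-box in CTSA and CTSD and the AP-1 motif, TGANTCA, in IVL.
CTSA, chr20:45891085-45891334, plus strand: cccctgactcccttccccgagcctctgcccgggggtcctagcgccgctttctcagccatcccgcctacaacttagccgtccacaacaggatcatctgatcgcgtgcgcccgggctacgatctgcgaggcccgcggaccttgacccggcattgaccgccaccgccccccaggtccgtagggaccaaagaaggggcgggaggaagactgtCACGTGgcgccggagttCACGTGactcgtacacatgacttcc
CTSD, chr11:1763928-1764177, minus strand: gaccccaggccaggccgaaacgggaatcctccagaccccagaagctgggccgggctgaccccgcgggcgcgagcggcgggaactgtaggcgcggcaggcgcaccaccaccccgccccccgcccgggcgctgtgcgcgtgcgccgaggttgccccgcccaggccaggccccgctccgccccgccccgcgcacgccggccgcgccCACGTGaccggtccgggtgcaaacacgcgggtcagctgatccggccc
CTSV, chr9:97039143-97039392, minus strand: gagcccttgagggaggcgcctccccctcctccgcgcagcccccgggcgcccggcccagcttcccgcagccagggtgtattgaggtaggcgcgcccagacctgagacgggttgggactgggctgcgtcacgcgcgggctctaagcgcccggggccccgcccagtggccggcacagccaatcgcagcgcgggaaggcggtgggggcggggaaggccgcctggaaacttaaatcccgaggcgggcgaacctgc
IVL, chr1:152908296-152908545, plus strand: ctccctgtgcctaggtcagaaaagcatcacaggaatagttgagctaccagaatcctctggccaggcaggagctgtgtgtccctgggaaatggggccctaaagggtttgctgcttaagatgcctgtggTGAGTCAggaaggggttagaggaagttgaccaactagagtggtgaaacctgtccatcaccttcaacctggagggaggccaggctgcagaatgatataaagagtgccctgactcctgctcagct

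CTSA held 2 E-boxes, the nearer of them within TCACGTGA, and CTSD held 1. These motifs read the same on both strands, and every TCACGTGA also holds an E-box. In CTSV no E-box, TCACGTGA or AP-1 motif was found, and none was found in CTSC, CTSH, CTSL or CTSZ. Among 27305 genes with such a promoter, 8.77% held an E-box, 1.18% held TCACGTGA and 9.37% held the AP-1 motif. Of the 4 cornification genes given below with such a promoter, 3 held the AP-1 motif, and of that list only IVL passed. CTSB, CSTA, CSTB and CST6 were not searched. CTSA did not pass the test of expression below, and CTSD was not tested. The matches are descriptions of these letters in these windows.

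**Figure D1:**
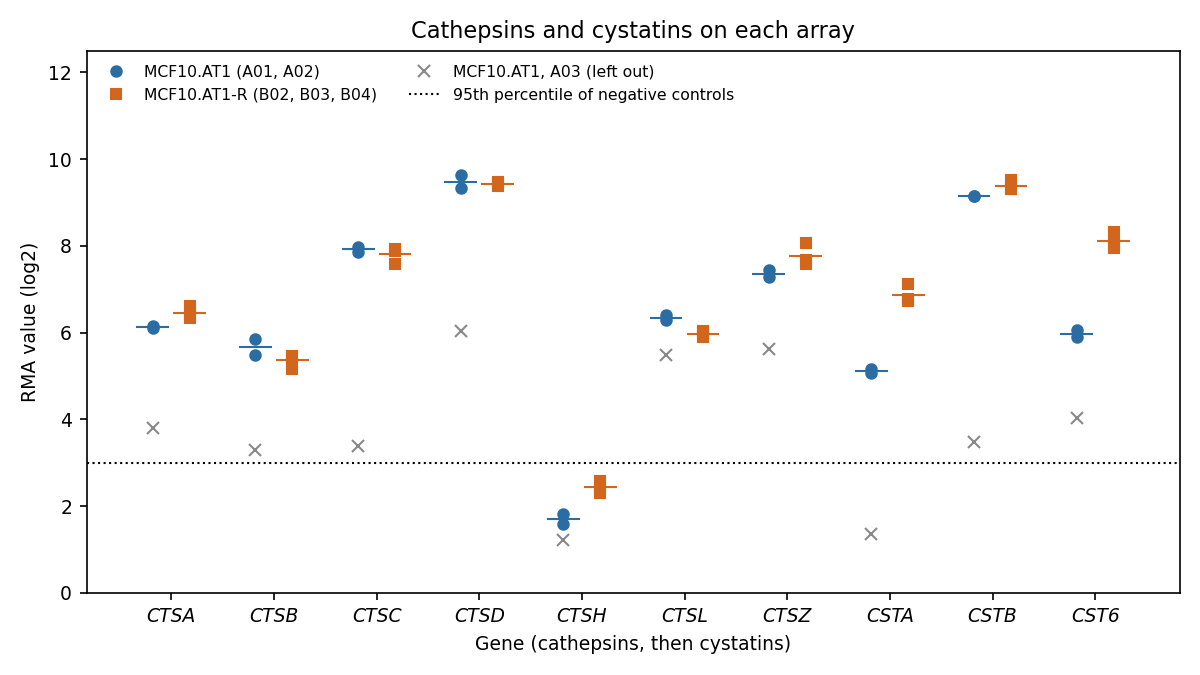
Each point is the log2 RMA value of a gene on 1 array, with short lines at the mean of each line's arrays, circles for the parental arrays A01 and A02, squares for the resistant arrays B02, B03 and B04, crosses for A03 and a dotted line at the negative controls. CST6 and CSTA show a wide gap between the lines, CTSC and CTSD overlap, CTSH lies under the dotted line on all arrays, and A03 is the lowest array for all 10 genes.

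CST6, which encodes cystatin E/M, an inhibitor of legumain, CTSL and CTSV, had the largest change of the 10. Its log2 value was 5.89 on A01 and 6.05 on A02, and 7.95, 8.04 and 8.33 on B02, B03 and B04. All 3 resistant arrays were above both parental arrays, with a gap of 1.90 between the nearest pair. The change was 2.14 (95% interval 1.53 to 2.75, SE 0.31), a fold of 4.40 (2.88 to 6.72), with adjusted p = 4.97e-09 by limma. The SD was 0.11 over the 2 parental arrays and 0.19 over the 3 resistant arrays, so the change was far larger than the spread within each line.

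CSTA, encoding the cytosolic stefin cystatin A, followed. Its log2 value was 5.16 and 5.08 on A01 and A02, and 7.11, 6.74 and 6.78 on B02, B03 and B04. The lines did not overlap here either, with a gap of 1.57. The change was 1.76 (1.15 to 2.37, SE 0.31), a fold of 3.38 (2.21 to 5.16), with adjusted p = 6.63e-06 by limma. The SD was 0.06 in the parental and 0.21 in the resistant line.

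CSTB, the other stefin, encodes the broadly expressed cystatin B. It was at 9.14 on both parental arrays and at 9.31, 9.32 and 9.52 on the resistant arrays. The resistant arrays lay above the parental ones, but only by 0.16 at the nearest pair. The change was 0.24 (-0.19 to 0.66), and CSTB was not tested because of its low spread. Without a filter its adjusted p was 0.864. The interval, also from limma without a filter, leaves out a rise as large as that of CSTA, whose lower bound in the filtered fit was 1.15.

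The calls for CST6 and CSTA held when any 1 of the 5 arrays was left out, with changes of 2.03 to 2.22 for CST6 and 1.64 to 1.83 for CSTA. Both also passed in limma without a filter. There the adjusted p was 0.00761 for CST6 and 0.0204 for CSTA, far larger than the values given above. When A03 was put back among the parental arrays, the changes were 2.78 and 3.01, but neither passed, with adjusted p = 0.422 for CST6 and 0.777 for CSTA in limma. On A03 itself CST6 was at 4.04 and CSTA at 1.35, both lower than on every other array. The same was true of all 10 genes, so A03 moved the changes upwards while widening the error.

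Among the cathepsins that cut with a cysteine, CTSL and CTSB were lower on all 3 resistant arrays than on both parental arrays, and neither passed. CTSL, an endopeptidase, was at 6.40 and 6.28 on A01 and A02, and at 6.04, 5.90 and 5.98 on B02, B03 and B04. Its change was -0.36 (-0.98 to 0.25, adjusted p = 0.828 by limma), with a gap of 0.24 between the lines. CTSB, which works as an endopeptidase and also removes dipeptides from the C-terminus, was at 5.48 and 5.86 on the parental arrays, and at 5.17, 5.47 and 5.45 on the resistant arrays. Here the lines were parted by only 0.01, and the change was -0.31 (-0.92 to 0.30, adjusted p = 0.838). The second CTSB probe set, not used for the gene, had a difference of -0.01.

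CTSC, the dipeptidyl peptidase that activates serine proteases of leukocyte granules, was at 7.86 and 7.99 on the parental arrays and at 7.89, 7.59 and 7.92 on the resistant arrays. These values overlapped, and the change was -0.12 (-0.57 to 0.33). CTSC was removed by the filter on spread, and its adjusted p without a filter was 0.942. CTSZ, a carboxypeptidase, was at 7.28 and 7.45 on A01 and A02, and at 7.58, 7.68 and 8.06 on B02, B03 and B04. All its resistant values were the higher ones, by 0.13 at the nearest pair, and the change of 0.41 (-0.20 to 1.02) did not pass, with adjusted p = 0.807 by limma.

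CTSH, an aminopeptidase, had the largest difference of the 7 cathepsins but no signal above background. Its values of 1.83 and 1.59 on the parental and 2.45, 2.30 and 2.57 on the resistant arrays were all below the 95th percentile of the array's negative control probe sets, which lay between 2.88 and 3.14 on the 5 arrays. The difference of 0.73 (0.12 to 1.34, adjusted p = 0.409 by limma) is thus between values that cannot be told from background. The other 9 genes were above that level on all 5 arrays.

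The remaining cathepsins work by other chemistry. CTSD, the main aspartic protease of the lysosome, was at 9.64 and 9.33 on A01 and A02, and at 9.45, 9.37 and 9.48 on B02, B03 and B04. Its resistant values lay between the parental ones, with a change of -0.05 (-0.49 to 0.39). CTSD was removed by the filter on spread, and its adjusted p without a filter was 0.980. CTSA, a serine carboxypeptidase that also shields the lysosomal enzymes encoded by GLB1 and NEU1, was at 6.11 and 6.15 on the parental and at 6.61, 6.33 and 6.44 on the resistant arrays. Its resistant values were all higher, by 0.17 at the nearest pair, and its change of 0.32 (-0.29 to 0.93) did not pass, with adjusted p = 0.835.

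Of the 7 cathepsins 5 were tested, CTSC and CTSD having been filtered out, and limma found 0 of the 5 past the threshold in either direction, while 1, CTSH, had an unadjusted p below 0.05. limma with a trend of the variance on the mean also gave 0. The intervals of the 6 expressed cathepsins all lay between -0.98 and 1.02, those of CTSC and CTSD being from limma without a filter. A rise of the size seen for CST6 or CSTA lies outside each of them, and these intervals do not settle smaller changes. The test gave each probe set past the filter the same SD of 0.34. The width of the CTSL interval thus came from that shared SD, as its own SD was 0.08 in the parental and 0.07 in the resistant line. Of the 9 genes above the negative controls on all 5 arrays, 5 had all resistant values above all parental values and 2 had them below. Over all 29616 such probe sets, 15.8% were parted upwards and 15.7% downwards. The median change of the 10 genes was 0.28, against -0.01 over all probe sets tested. Under the trend 1.69% of probe sets tested were called higher and 0.981% lower, and the members called were again CST6 and CSTA.

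**Figure D2:**
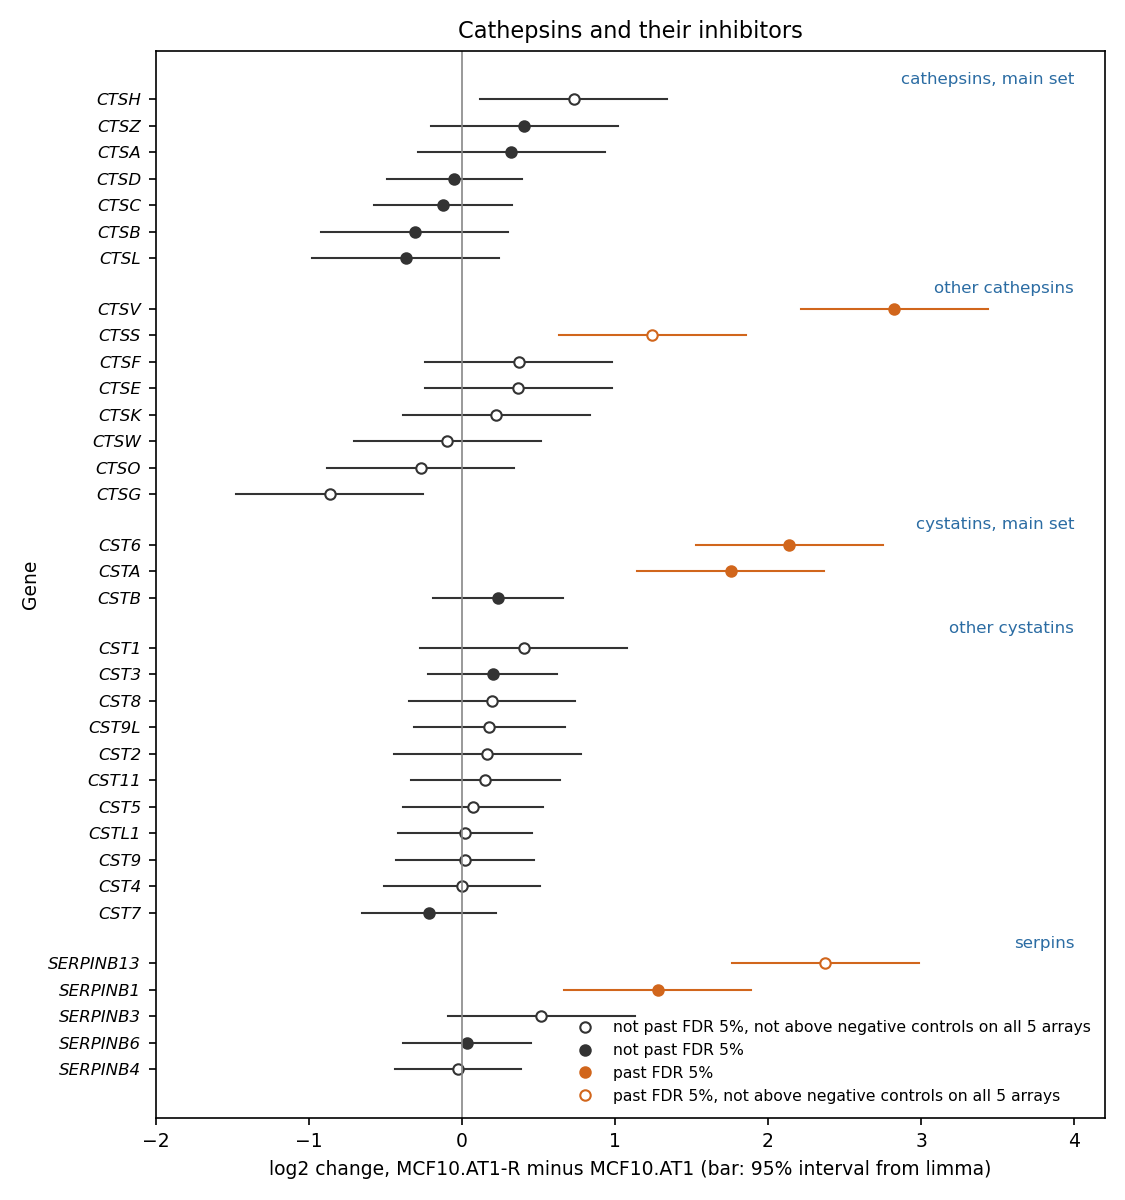
Log2 change from MCF10.AT1 to MCF10.AT1-R with its 95% interval from limma for the 10 genes (main set) and for the other cathepsins, cystatins and serpins. Intervals of genes not tested are from limma without a filter. Orange marks genes past FDR 5%, and open circles mark genes not above the negative controls on all 5 arrays. The orange genes, CTSV, CTSS, CST6, CSTA, SERPINB13 and SERPINB1, all lie to the right of 0.

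Of 8 further cathepsins, 2 were higher and 0 lower. CTSV, the closest relative of CTSL and known from thymus, cornea and epidermis, rose more than any of the 10 genes. Its log2 value was 4.13 and 4.10 on A01 and A02, and 7.03, 6.80 and 7.00 on B02, B03 and B04, so the lines stood far apart. Its change was 2.83 (2.22 to 3.44), a fold of 7.09, with adjusted p = 1.79e-16 by limma. CTSV also passed with A03 added (adjusted p = 0.0387) and without a filter (adjusted p = 0.00148). The genes for the inhibitor cystatin E/M and for one of its targets thus both rose, while CTSL, another target, was at -0.36.

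CTSS, which cuts the invariant chain during antigen presentation, was at 2.91 and 2.21 on the parental arrays and at 3.78, 3.70 and 3.93 on the resistant arrays. Its parental values were at background and its resistant values above it. The fitted change was 1.24 with adjusted p = 0.00905 by limma, and with values floored at the negative controls it was 0.81 with adjusted p = 0.0663. The call was lost without A02 (0.89, adjusted p = 0.756) and without B04 (1.18, adjusted p = 0.0565). It was also lost in limma without the filter on spread (adjusted p = 0.168), without any filter (adjusted p = 0.209) and with A03 added (adjusted p = 0.777). CTSG, the serine protease of neutrophil granules, had the lowest change, -0.86 (adjusted p = 0.218), and was above background on 2 of the 5 arrays. The other 5 cathepsins, CTSE, CTSF, CTSK, CTSO and CTSW, did not pass.

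Outside the 3 cystatins named above, none of the family passed. Of 11 other cystatin genes 8 were above the negative controls on none of the 5 arrays, and limma called 0, with 0 at an unadjusted p below 0.05. CST3, the secreted cystatin C, was at 6.95 and 6.77 on A01 and A02, and at 7.09, 7.01 and 7.07 on B02, B03 and B04, a change of 0.20 (-0.22 to 0.62). The highest change was that of CST1 at 0.40, at background, and the lowest that of CST7 at -0.21. Only 1 of the 11 passed the filter.

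Inhibitors of another fold, the clade B serpins, gave 2 higher genes of 5. SERPINB13, an inhibitor of CTSL and CTSK found in keratinocytes, was at 2.98 and 3.23 on the parental arrays and at 5.60, 5.28 and 5.54 on the resistant arrays. Its change was 2.37 (1.76 to 2.98, adjusted p = 2.28e-11 by limma), from about the level of the negative controls. With A03 added it was 2.33, with adjusted p = 0.0663, and without a filter the adjusted p was 0.00476. SERPINB1, which blocks neutrophil elastase and CTSG, rose by 1.28 (adjusted p = 0.00608), but the call was lost when A01 was left out, with a change of 1.17 and adjusted p = 0.295, and likewise for A02, with 1.39 and adjusted p = 0.104. The SERPINB1 call was also lost in limma without the filter on spread (adjusted p = 0.059), without any filter (adjusted p = 0.074) and with A03 added (adjusted p = 0.777). SERPINB4 had the lowest change, -0.02, and was not tested.

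Genes that process the cathepsins or stand beside them did not pass. LGMN encodes legumain, an asparaginyl endopeptidase that matures several cathepsins and is blocked by cystatin E/M. It was at 5.25 and 5.31 on A01 and A02 and at 5.73, 6.04 and 5.73 on B02, B03 and B04. All 3 resistant values were higher, and the change was 0.55 (-0.06 to 1.16, adjusted p = 0.684 by limma). NEU1 and GLB1, the partners of CTSA, had differences of 0.43 and 0.20. PSAP, the precursor of the saposins, which activate sphingolipid hydrolases, was at a difference of 0.38 and was the only 1 of these 7 genes called higher under the trend, with adjusted p = 0.00219. CD74, the invariant chain, had the lowest change, -0.33, mostly at background.

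The route to the lysosome showed no call either, with 6 of the 11 sorting genes tested. M6PR and IGF2R, the receptors for mannose 6-phosphate, had differences of -0.22 and -0.04 and were not tested. Of the 11 sorting genes SORT1, an alternative receptor, had the highest change at 0.64 (adjusted p = 0.567) and GGA3, a coat adaptor, the lowest at -0.31. Of 10 lysosomal membrane genes 5 were tested, and LAMP1 and LAMP3 were not. The difference was 0.11 for LAMP1, 0.41 for CTNS, the cystine carrier, and -0.52 for LAMP3, at background. CD63 was called higher under the trend only, at 0.34.

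Among 26 other hydrolases the median change was 0.01. LIPA, the acid lipase, had the highest value at 1.04 (adjusted p = 0.0602 by limma) and ACP2, an acid phosphatase, the lowest at -0.88 (adjusted p = 0.201). Under the trend LIPA, IDS and ASAH1 were called higher and ACP2 lower. The 16 subunits of the V-ATPase, the proton pump that acidifies the lysosome, had a median change of 0.37, and 13 of them were above 0. ATP6V0E1 at 0.83 and ATP6V1E1 at 0.76 were called under the trend only, and ATP6AP1 was the lowest at -0.29. Of the transcription factors, the difference was 0.24 for TFE3, which was not tested, 0.46 for MITF and -0.15 for TFEB, at background.

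Over these 74 lysosomal genes, 53 were tested and limma called 0 higher and 0 lower, with 7 of the 53 at an unadjusted p below 0.05. Under the trend 7 were higher and 1 lower. The median change was 0.18. Of the 66 above the negative controls on all 5 arrays, 29 were parted upwards between the lines and 7 downwards, beside the shares of all such probe sets given above. RefSeq promoters were on hand for 53 of the 74 genes, which are not the same 53 as those tested. Of the genes with a promoter, 15 held an E-box, 28.3%, and 10 held TCACGTGA, 18.9%.

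**Figure D3:**
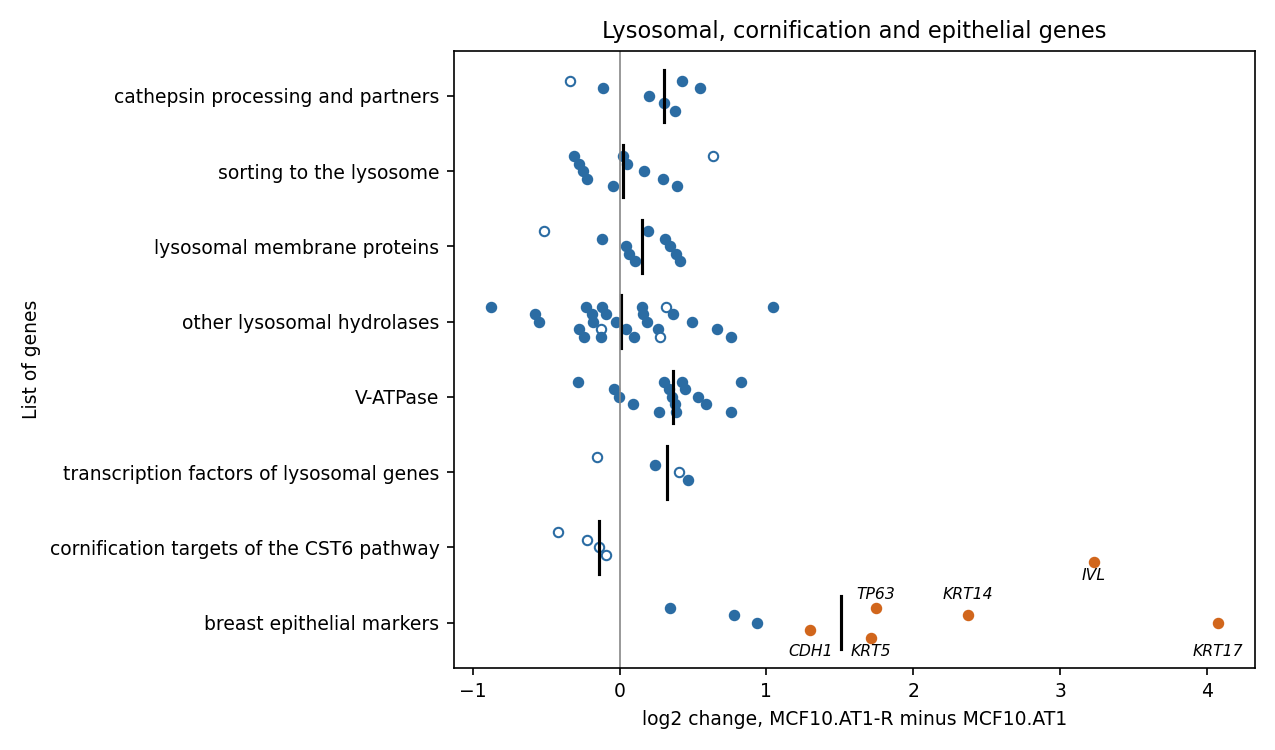
Each point is the log2 change of 1 gene from MCF10.AT1 to MCF10.AT1-R, in rows by list, with a vertical bar at the list's median. Orange points passed FDR 5% and are named, and open points were not above the negative controls on all 5 arrays. No gene of the 6 lysosomal rows is orange, while IVL and 5 breast epithelial markers are.

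Of the 5 cornification genes examined, only IVL was above the negative controls on all 5 arrays. IVL, involucrin, a precursor of the cornified envelope, was at 3.58 and 3.44 on A01 and A02, and at 6.83, 6.27 and 7.13 on B02, B03 and B04. It rose by 3.23 (2.62 to 3.84, adjusted p = 9.18e-22 by limma). Without a filter the adjusted p of IVL was 0.00421. The envelope's crosslinking enzymes TGM1 and TGM3 had differences of -0.09 and -0.42, and neither passed. TGM1 was above the negative controls on 1 array and TGM3 on 4. The late genes LOR and FLG were at -0.14 and -0.22 and were removed by the filter. LOR was above the negative controls on 1 array and FLG on none.

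All 8 breast epithelial markers were above background on all 5 arrays. KRT5, KRT14, KRT17, TP63 and CDH1 rose by 1.71, 2.37, 4.08, 1.74 and 1.30, ITGB4, EPCAM and ITGA6 did not pass at 0.93, 0.78 and 0.35, and the summed log2 level of the 8 was 53.6 to 54.9 on the parental and 67.2 to 68.0 on the resistant arrays. The call of CDH1 was lost when A01 (adjusted p = 0.0889) or A02 (adjusted p = 0.271) was left out, and without a filter (adjusted p = 0.0616). With A03 added, KRT17 kept its call (adjusted p = 0.0387 by limma). KRT5, KRT14, TP63 and CDH1 then lost theirs (adjusted p = 0.777, 0.224, 0.247 and 0.777). Of 7 markers of cornifying keratinocytes 2 were higher, KRT1 at 1.10 and CDSN at 1.14. KRT10, KRT2 and LCE3D did not pass at 0.58, 0.41 and 0.05, and LOR and FLG, given above, were not tested. The summed level of the 7 was 21.4 to 21.8 on the parental and 23.5 to 26.0 on the resistant arrays. KRT1 lost its call without any 1 of the 5 arrays (lowest adjusted p = 0.0532), and CDSN without any 1 except B03. Both calls were also lost with A03 added (adjusted p = 0.777 for each). KRT1, CDSN and the summed level moved with CST6, CSTA, SERPINB13 and IVL, and their part in those results was not tested. Of 8 leukocyte markers, PTPRC, AIF1 and LYZ were above background on no array, while CD14, CSF1R and TYROBP were above it on all 5. CD163 was above background on 3 arrays and ITGAM on 1. TYROBP at -0.06 and CD163 at -0.21 did not pass. CD14 was lower at -1.12, a call lost without any 1 of the 5 arrays (adjusted p = 0.0522 to 0.454) and with A03 added (adjusted p = 0.777). CSF1R at 0.67 and ITGAM at 0.60 did not pass (adjusted p = 0.510 and 0.617). The sum was 23.1 to 24.9 in the parental and 24.6 to 24.8 in the resistant line. Of 7 fibroblast markers DCN was lower at -2.15, a call lost with A03 added (adjusted p = 0.777). COL1A1, COL1A2 and COL3A1, above background on all 5 arrays, were at 0.15, 0.13 and -0.16 and were not tested, and LUM and PDGFRB were at background on all 5 arrays. The sum was 30.2 to 30.7 and 27.6 to 28.7. In bulk RNA a change in the share of cells that express a gene and a change in RNA per cell cannot be told apart.

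**Figure D4:**
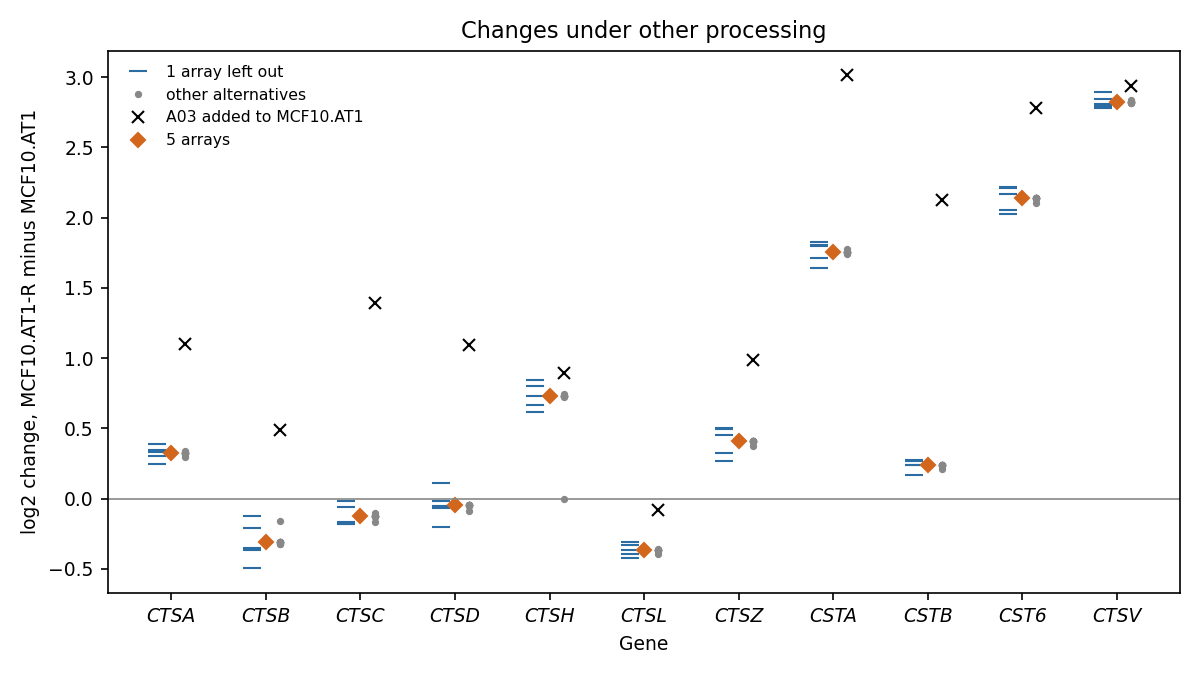
Log2 change of each of the 10 genes and of CTSV in the 5 arrays (diamonds), with 1 array left out (blue dashes), under other filters, fits and normalizations (grey dots) and with A03 added (crosses). CST6, CSTA and CTSV stay above 1.5 throughout, the 7 cathepsins lie between -0.36 (CTSL) and 0.73 (CTSH) in the 5 arrays, and adding A03 moves all 11 genes upwards, CTSC to 1.39.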

How the data were processed

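Total RNA of 3 MCF10.AT1 and 3 MCF10.AT1-R samples was hybridised to Clariom D arrays. The deposited values are log2 signals that the authors made by RMA (background correction, quantile normalization and summary per probe set). The table holds all 6 arrays, and whether A03 entered the normalization is not given in the sources used here. Array names were tied to their line from the labels and the study's own plot of the arrays, and carry no replicate number. Control probe sets (2995) were left out, and 612 negative controls gave the background. As in the study, A03 was removed and low and invariant probe sets were filtered. The limits of that filter are not given in the sources used here, so a mean above the median (1.88) and an SD above the lowest 25% (0.18) were used, leaving 51457 of 135750. limma 3.58.1 in R 4.3.3 compared the lines with Benjamini-Hochberg adjustment at 5%, after a check on simulated data. Figures and promoter searches used Python 3.11.15. The 10 genes and all gene lists were chosen with earlier results of these data known. Beyond the 10, the genes named are those past 5% in a list, the highest and lowest change of each list other than the cell type markers, and a fixed set that processes, binds, sorts or regulates cathepsins. Cell type markers and a few further genes were named to describe their lists after their values were seen. The alternatives were other filters, a trend or array weights in limma, other normalizations and thresholds, A03 added and each array left out. Depth does not apply to arrays, and their number limits the precision.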

Additional observations from a re-analysis of the deposited data

How the results depend on the processing

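No paired analysis was possible because the array names carry no replicate numbers. The number of arrays, 2 against 3, and their signal over background limit what can be detected. Of the 10 genes, 2 higher and 0 lower held under every alternative except A03 added, which gave 0 higher, and leaving out 1 array gave 2 and 0 throughout. Over all probe sets, 390 higher and 230 lower became 26 and 0 with A03 added, 218 and 54 with values floored at the negative controls, 147 and 35 with the filter on low values alone, 143 and 34 without a filter, and 872 and 505 with the trend. The filter on low values with the trend gave 764 higher. An FDR of 1% gave 259 and 127, and one of 10% gave 349 lower. Leaving out 1 array gave 156 to 396 higher and 99 to 233 lower. The cause of these shifts was not tested. Of the other cathepsins, inhibitors and lysosomal and cornification genes, 5 were higher and 0 lower, against 2 higher with A03 added, 3 with the filter on low values alone and 3 without a filter, 11 with that filter and the trend, 12 higher and 1 lower with the trend, and 3 to 6 higher and 0 to 0 lower with 1 array left out. The changes of CTSB, CTSC, CTSD, IGF2R, M6PR and TFEB turned positive with A03 added, at 0.49, 1.39, 1.10, 0.98, 0.35 and 0.30, and with 1 array left out those of CTSD ran from -0.21 to 0.11, of IGF2R from -0.12 to 0.047 and of TFEB from -0.37 to 0.037. Of these, CTSB and TFEB had not passed the test, and CTSC, CTSD, IGF2R and M6PR had not been tested.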

Other observations

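The array also carries probe sets for pseudogenes of CTSL and of the cystatin family. Their sequences were not compared with those of the genes. Of the 6 for CTSL, only CTSLP6 was above the negative controls on all 5 arrays, at 4.71 and 4.73 on A01 and A02 and 4.80, 4.94 and 4.83 on B02, B03 and B04. Its change was 0.13, beside -0.36 for CTSL. On A03 it was at 5.49, above the other 5 arrays, whereas CTSL was lowest there. Whether the probe sets share signal was not tested.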
